A study of Phyllostachys edulis with 34 samples.

Results

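The genes described here are listed by the study under the later enzymes of monolignol biosynthesis in Moso bamboo (Phyllostachys edulis). The last enzyme, cinnamyl alcohol dehydrogenase (CAD), is left out. A gene was a member if the study's own list of lignin genes placed it under the heading HCT, C3H, CSE, CCoAOMT, CCR or F5H and if it had a row in the deposited count table, whatever its expression level. By this rule, after 1 omission stated with the processing of the data, there were 103 members among the 59091 genes of the table, namely 21 HCT, 3 C3H, 11 CSE, 6 CCoAOMT, 30 CCR and 32 F5H genes, and 2 listed transcripts of PH02Gene46700 were taken as 1 gene. Family names are those headings and were not checked against protein sequence, and F5H and CCR in particular are parts of large protein families. For 2 members the running text of the study uses another family name than its list does: PH02Gene42984 (CCR in the list, PAL in the text) and PH02Gene48963 (HCT in the list, CCR in the text). The heading of the list is used throughout, and genes are named by their identifiers because no symbols, coordinates or sequences were used here.

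Monolignols are the alcohols that plant cells export and polymerise into the lignin of their walls. HCT, a hydroxycinnamoyltransferase, couples p-coumaroyl-CoA to shikimate, C3H, a cytochrome P450, adds a hydroxyl group to that ester, and CSE, an esterase, releases caffeate from it. CCoAOMT methylates caffeoyl-CoA to feruloyl-CoA, and CCR reduces the CoA esters to aldehydes. F5H, another cytochrome P450, hydroxylates guaiacyl intermediates on the way to the precursors of syringyl lignin. Lignification is known to respond to drought, salt and hormones in many plants, and several of these families also hold genes that serve other phenolic compounds.

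RNA was sequenced from young leaves of 30-day-old seedlings, and the 34 libraries formed 11 groups. Seedlings had been treated with 25% PEG (polyethylene glycol, which lowers the water potential of the medium), 200 mM NaCl, 1 mM SA (salicylic acid) or 1 µM ABA (abscisic acid), each for 3 h and for 24 h, with 3 libraries in each of these 8 groups. The CK groups at 3 h and 24 h, taken here as the untreated controls although the labels do not spell the abbreviation out, had 3 libraries each, and a group labelled 0 h had 4. No transgene or mutant was used, and the labels give 1 species and 1 tissue for all groups.

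Between 28153302 and 51695158 reads were counted per library, with a median of 33238237. Libraries of one group resembled each other across 16877 genes with a Spearman rho of 0.949 to 0.991 in every group but 0 h. Replicate 1 of the 0 h group stood apart, with a rho of only 0.713 to 0.715 to the other 0 h libraries and of 0.964 to 0.973 to the 3 libraries labelled ABA 24 h. The summed level of the 6 CCoAOMT genes was 11.8 FPKM in that library, at most 113 FPKM in the other 0 h libraries and 12.6 to 15.9 FPKM in the ABA 24 h libraries. All labels were kept as deposited, the 0 h group entered no comparison, and whether the ABA 24 h labels are right was not tested, so that every ABA 24 h value below belongs to the libraries labelled so.

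Levels are given as FPKM (read fragments scaled to transcript length and to library size), which allows genes to be compared per length. Changes are log2 fold changes of the counts from edgeR's quasi-likelihood test with TMM scaling, and a gene is said to have risen, fallen or been called when its Benjamini-Hochberg adjusted p over all 39089 tested genes was below 0.05 and its change at least 2-fold. The FPKM and the TMM-scaled counts differ most in PEG 3 h and SA 3 h. TMM factors were 0.859 to 0.887 in the PEG 3 h and SA 3 h libraries against 1.11 to 1.12 in CK 3 h, so that log2 fold changes there lie above the ratios of the FPKM. Removing the factors moved the median of all genes by -0.34 in PEG 3 h and by -0.36 in SA 3 h. In whole leaves, a lower level can come from fewer cells of a type or from less RNA per cell, and these cannot be told apart. The 8 comparisons with CK use the same 3 control libraries at each time point and are therefore not independent of each other.

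Expression was concentrated in few members. Averaged over the 34 libraries, 56 of the 103 members reached 1 FPKM, 25 reached 10 FPKM and 34 stayed below 0.1 FPKM, and 11 had no count in any library (6 F5H, 2 HCT and 1 each of CCR, CSE and CCoAOMT, the last being PH02Gene05833). The F5H gene PH02Gene18881 had the highest mean at 248 FPKM, followed by the C3H gene PH02Gene03849 at 145 FPKM and the CSE gene PH02Gene34362 at 111 FPKM. One gene supplied most of the summed level of its family in CK 3 h for C3H (91.4%, PH02Gene03849), CSE (79.3%, PH02Gene34362) and CCoAOMT (52.5%, PH02Gene07558). The top HCT gene, PH02Gene24931, supplied 44%, the top F5H gene, PH02Gene18881, 41.1% and the top CCR gene, PH02Gene04629, 29.5%. After the filter on low counts, 74 members were tested: 15 HCT, 3 C3H, 9 CSE, 5 CCoAOMT, 24 CCR and 18 F5H genes.

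**Figure D1:**
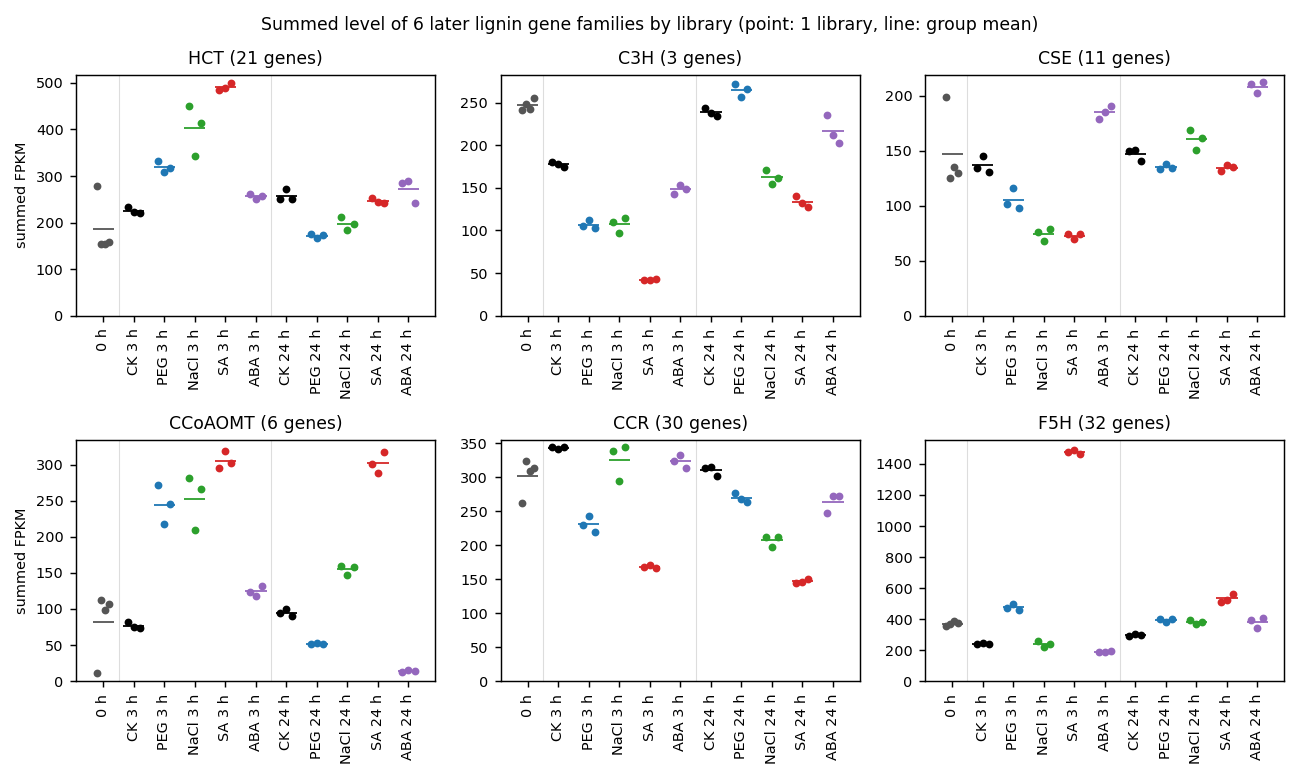
Summed FPKM of the members of each family (vertical axis, linear, starting at 0) in each library (points) of the 11 groups (horizontal axis), with a line at each group mean. The F5H sum stood at 1466 to 1491 FPKM in the 3 SA 3 h libraries and at 238 to 248 FPKM in CK 3 h, and the CCoAOMT sum was lowest in the 3 ABA 24 h libraries and in 1 library labelled 0 h.

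Counts over the 6 families are given beside the share of all 39089 tested genes that was called, and no test compared the shares. In PEG 3 h, 17 members rose (13.3% of all tested genes did) and 6 fell (12.6%), together 31.1% of the 74 beside 25.9% of all tested genes. In NaCl 3 h, with the shares in the same order, 12 rose (10.9%) and 14 fell (9.64%), together 35.1% beside 20.5%. In SA 3 h, 17 rose (14.5%) and 13 fell (14.3%), together 40.5% beside 28.8%. In ABA 3 h, 13 rose (10.4%) and 5 fell (11.4%), together 24.3% beside 21.8%. The shares in PEG 3 h and ABA 3 h were near the background, and those in NaCl 3 h and SA 3 h were higher than it. The direction depended on the scaling, since without TMM factors PEG 3 h gave 12 higher and 13 lower and SA 3 h gave 11 higher and 23 lower. The median log2 fold change of all tested genes was then -0.44 in PEG 3 h and -0.43 in SA 3 h. Shares of all tested genes called are not given for that setting, so these counts cannot be set beside the shares above.

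With PEG at 24 h, 4 rose (6.72%) and 9 fell (9.58%), together 17.6% beside 16.3%, a share near the background. With NaCl, 16 rose (14.2%) and 13 fell (15.4%), together 39.2% beside 29.6%. With SA, 13 rose (9.03%) and 15 fell (11.7%), together 37.8% beside 20.7%. In the ABA 24 h libraries, 6 rose (6.51%) and 14 fell (13.7%), together 27% beside 20.2%. Without TMM factors the counts were 3 higher and 13 lower for PEG 24 h and 3 higher and 19 lower for ABA 24 h. The median log2 fold change of all tested genes was then -0.22 for PEG 24 h and -0.33 for ABA 24 h, and shares of all tested genes are not given for that setting. Over the 8 comparisons the median log2 fold change of the 74 members ranged from -0.28 (SA 24 h) to 0.10 (NaCl 24 h), beside -0.10 to -0.04 for all tested genes.

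**Figure D2:**
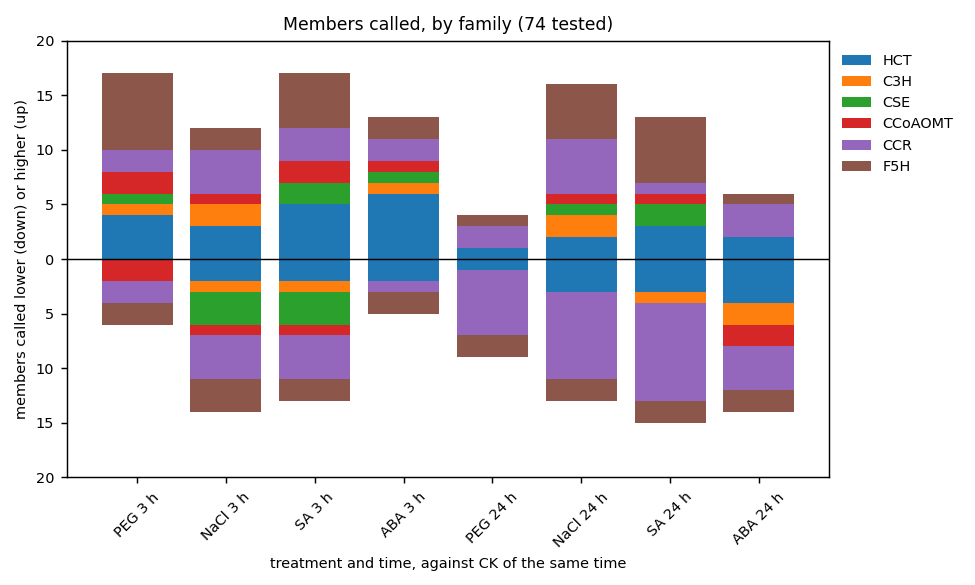
Members called higher (bars upward) and lower (bars downward) in each of the 8 comparisons with CK, by family (colour), out of 74 tested members. SA 3 h had the most calls (17 higher and 13 lower, with 28.8% of all tested genes called) and PEG 24 h the fewest (4 higher and 9 lower, with 16.3%). Falls of CCR genes, of which 24 were tested, made up 9 of the 15 falls in SA 24 h, where 11.7% of all tested genes fell.

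HCT catalyses the first of these steps, and 3 of the 21 HCT genes had mean levels of 61.9 to 103 FPKM and the other 18 had at most 6.67 FPKM. PH02Gene48963, which had the largest changes of these 3, was called higher in 6 of the 8 comparisons. Its level was 13.7, 13.5 and 11.2 FPKM in the CK 3 h libraries, 111, 116 and 108 FPKM in PEG 3 h, 125, 94.8 and 115 FPKM in NaCl 3 h, 251, 246 and 255 FPKM in SA 3 h and 33.6, 33.2 and 29.4 FPKM in ABA 3 h. All 12 treated libraries lay above the 3 controls, and the SA libraries lay above all others. The rise was largest with SA (log2 fold change 4.65, standard error 0.14, adjusted p = 2.2e-20, edgeR), similar with PEG (3.51) and NaCl (3.15), and smallest with ABA (log2 fold change 1.45, standard error 0.13, adjusted p = 4.2e-10, edgeR). The SA rise exceeded the PEG rise by 1.14 and the NaCl rise by 1.5 on the log2 scale, both called in a test of that difference (across all tested genes, 24.5% and 16.1% were called in these 2 tests). At 24 h the gene stood at 20.1, 19.3 and 19.3 FPKM in CK and remained raised with NaCl (64.3, 55.3 and 63.4 FPKM, log2 fold change 1.74) and SA (57.4, 57.7 and 66.4 FPKM, 1.57). PEG (-0.43) and ABA (-0.97) did not pass the test at that time. The ABA value passed without ABA 24 h replicate 2 (-1.19) or without TMM factors (-1.23). The 24 h effect was smaller than the 3 h effect for all 4 treatments in the test of that difference, with differences of -3.94 for PEG, -1.41 for NaCl, -3.08 for SA and -2.41 for ABA.

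PH02Gene19041 and PH02Gene19042 carry consecutive identifiers, and both fell with SA at 24 h and rose in the ABA 24 h libraries. PH02Gene19042 had 7.65, 7.84 and 8.38 FPKM in CK 3 h, 0.604, 0.282 and 0.362 FPKM in NaCl 3 h and 0.107, 0.0815 and 0.184 FPKM in SA 3 h. All 6 of these treated libraries lay far below the controls. At 3 h the gene fell with NaCl (-4.17) and SA (log2 fold change -5.51, standard error 0.38, adjusted p = 1.3e-12, edgeR), and less with ABA (-1.11). It fell with SA once more at 24 h (-4.02) and with NaCl (-1.06). In the ABA 24 h libraries it rose instead, from 7.66, 8.69 and 6.73 FPKM in CK 24 h to 25.7, 24.5 and 19.4 FPKM (log2 fold change 1.88, standard error 0.27, adjusted p = 1.8e-06, edgeR). The difference between its ABA effects at 24 h and 3 h was 2.997, the largest called rise with time for ABA among the members. For PH02Gene19041 the values were 1.63 in ABA 24 h and -2.28 in SA 24 h, both called, whereas SA at 3 h gave 0.78, which was not. PH02Gene19041 also fell with NaCl at 3 h (-1.10) and 24 h (-1.19) and with ABA at 3 h (-1.02). The smaller of these falls were not firm. The ABA 3 h calls were lost for PH02Gene19042 without ABA 3 h replicate 2 (-0.80) and for PH02Gene19041 without CK 3 h replicate 2 (-0.93), without ABA 3 h replicate 3 (-0.85) or with DESeq2 (-0.97). The NaCl 24 h call of PH02Gene19042 was lost without CK 24 h replicate 2 or NaCl 24 h replicate 2 or 3 (-0.94 to -0.96). With the 0 h libraries in the fit none of these ABA 3 h and NaCl 24 h falls, nor the NaCl 3 h fall of PH02Gene19041, was called (adjusted p = 0.071 to 0.16, edgeR). Replicate 1 of the 0 h group, part of that fit, had 24.3 FPKM of PH02Gene19041 and 26.6 FPKM of PH02Gene19042. The other 0 h libraries had 2.02 to 4.33 FPKM and 2.34 to 3.37 FPKM. How far these lost calls rest on that library was not tested. Over the 11 group means the levels of this pair had a Pearson r of 0.93, given as a description. Both genes had their highest mean in ABA 24 h (25 and 23.2 FPKM), and the r was not computed without that group. The 0 h mean used for the r includes replicate 1, and the r was not computed without that library either.

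The other 2 HCT genes with high levels changed less against CK. PH02Gene47111, the HCT gene with the highest mean, was at 82.3, 78.9 and 81.1 FPKM in CK 3 h and 126, 128 and 133 FPKM in SA 3 h, a rise just past 2-fold (log2 fold change 1.03, standard error 0.10, adjusted p = 2e-09, edgeR). It lay between 0.96 and 0.997, below 2-fold, when replicate 2 or 3 of either group was left out. It was at 0.99 without the filter on low counts and at 0.67 without TMM factors or on the FPKM. PH02Gene24931, with 105, 97.6 and 95.9 FPKM in CK 3 h and 180.4, 143 and 175 FPKM in NaCl 3 h, was called in none of the 8 comparisons. Its largest changes were 0.77 in NaCl 3 h and -0.77 in PEG 24 h. The effects of PH02Gene24931 at 24 h lay below those at 3 h for PEG (-1.30) and NaCl (-1.37). Those of PH02Gene47111 did so for SA (-1.61) and NaCl (-1.19), and each of these differences was called. PH02Gene25268 had the smallest changes against CK of the HCT genes with a mean of at least 1 FPKM, none beyond -0.75 in PEG 24 h. Its ABA effect was higher at 24 h than at 3 h by a called difference (1.20). PH02Gene25625, named after its values had been seen, rose in all 4 treatments at 3 h (1.74, 1.84, 1.43 and 1.86 in PEG, NaCl, SA and ABA) and fell with PEG at 24 h (-1.73).

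The largest fitted changes among HCT genes belonged to genes with few counts. PH02Gene48286 had counts of 6, 15 and 21 in CK 24 h, 403, 235 and 266 in NaCl 24 h and 214, 137 and 122 in ABA 3 h. It was called in all 8 comparisons, the only member to be so. It rose in 7 of them, by 4.47 in NaCl 3 h, 5.73 in ABA 3 h and 4.20 in NaCl 24 h. It was at 0 counts in each ABA 24 h library, at least 3.83-fold lower than CK 24 h on a floor of 3 counts per library. PH02Gene11151, PH02Gene48782 and PH02Gene18490 had at most 37 counts in any library, and calls of these genes were lost when single libraries were left out. PH02Gene11151 had 0, 19 and 0 counts in ABA 3 h and none in CK 3 h, and PH02Gene48782 had 9, 37 and 0 counts there and none in CK 3 h. PH02Gene18490 had 20, 23 and 2 counts in CK 24 h and 0 in each NaCl, SA and ABA library at 24 h.

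All 3 genes listed as C3H, the enzyme that hydroxylates the shikimate ester, were tested, and in NaCl 3 h the most abundant of them fell while the other 2 rose. PH02Gene03849 was at 165, 161 and 161 FPKM in CK 3 h, 62.9, 71.9 and 62.4 FPKM in PEG 3 h, 60.7, 53 and 70.7 FPKM in NaCl 3 h, 26.9, 24 and 26.9 FPKM in SA 3 h and 126, 132 and 126 FPKM in ABA 3 h. Every treated library lay below the controls, the SA libraries farthest. It fell with SA (log2 fold change -2.28, standard error 0.09, adjusted p = 2.4e-18, edgeR) and NaCl (log2 fold change -1.37, standard error 0.08, adjusted p = 1.6e-13, edgeR), and in PEG the value was -0.91, short of 2-fold. At 24 h it fell with SA (224, 218 and 217 FPKM in CK 24 h, 110.4, 103 and 97.3 FPKM in SA 24 h, -1.14), while NaCl gave log2 fold change -0.73, standard error 0.08, adjusted p = 1.7e-08, edgeR, a lower level short of 2-fold. The SA effect was smaller at 24 h than at 3 h by 1.15. The PEG 3 h change was past 2-fold as well without TMM factors (-1.25) and on the FPKM (-1.29 to -1.31).

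PH02Gene43237 rose from 13.8, 14.7 and 12.1 FPKM in CK 3 h to 40.6, 37.7 and 37.5 FPKM in PEG 3 h (log2 fold change 1.90, standard error 0.11, adjusted p = 9.1e-14, edgeR) and 40, 39.1 and 36.1 FPKM in NaCl 3 h (1.53), with no overlap. SA (0.46) and ABA (0.23) at 3 h did not pass the test, and the PEG effect had gone by 24 h (0.01, difference between the effects -1.89). With NaCl it rose at 24 h too (1.09). PH02Gene02368 rose with NaCl at both times (2.09 and 1.35) and with ABA at 3 h (1.79). Both genes fell in the ABA 24 h libraries, PH02Gene43237 to 6.16, 5.35 and 3.76 FPKM (-1.29) and PH02Gene02368 to 0.613, 1.28 and 1.08 FPKM (-1.62), where PH02Gene03849 did not pass the test (0.23). As a sum, the C3H level was 178 ± 3.01 FPKM in CK 3 h and 42.1 ± 0.970 FPKM in SA 3 h (mean ± SD, n = 3 each).

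Of the 11 genes listed as CSE, the esterase that releases caffeate, 9 were tested and none of the 3 most abundant rose. PH02Gene34362 was at 105, 117 and 103 FPKM in CK 3 h, 55.5, 46.4 and 57.2 FPKM in NaCl 3 h, 50.8, 46 and 48.2 FPKM in SA 3 h and 157, 161 and 168 FPKM in ABA 3 h. The NaCl and SA libraries lay below the controls and the ABA libraries above them, but only NaCl passed, at the edge of the 2-fold limit (log2 fold change -1.002, standard error 0.08, adjusted p = 3.8e-11, edgeR). It did not pass with DESeq2 (-0.97), with only the 2 groups fitted (-0.96), without CK 3 h replicate 2 (-0.94) or without NaCl 3 h replicate 2 (-0.89). The SA value was -0.80, past 2-fold without TMM factors (-1.17), and the ABA value 0.71. PH02Gene47439, at 10.8 FPKM on average, changed least among CSE genes, with values from -0.69 to 0.44, and PH02Gene20021 was called in none of the 8 comparisons either. Between 24 h and 3 h effects, called differences were found for PH02Gene34362 with NaCl (1.14) and for PH02Gene20021 with SA (1.04) and NaCl (1.03). Those of PH02Gene20021 fell below 2-fold without CK 3 h replicate 2 (0.94 for SA and 0.89 for NaCl), and that for NaCl also without CK 24 h replicate 1, NaCl 3 h replicate 1 or 2 or NaCl 24 h replicate 2 (0.96 to 0.99).

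Less abundant CSE genes changed as well. PH02Gene14766, named after its values had been seen, rose from 1.57, 1.15 and 0.817 FPKM in CK 24 h to 9.31, 9.64 and 8.03 FPKM in NaCl 24 h (log2 fold change 3.02, standard error 0.32, adjusted p = 6.3e-09, edgeR), every NaCl library being above every control, whereas NaCl at 3 h gave 0.25. The difference between these NaCl effects was 2.78 and was called. The gene also rose with PEG (1.84), SA (1.93) and ABA (1.43) at 3 h and with SA at 24 h (1.46). PH02Gene38043, also named after its values had been seen, fell in SA 3 h, where it had 0, 2 and 4 counts against 48, 33 and 20 in CK 3 h (-3.58), and stood at 0.54 with SA at 24 h. PH02Gene44160 fell in NaCl 3 h (-2.60) on 3, 0 and 6 counts against 36, 13 and 12. This call was lost without CK 3 h replicate 1 (-1.75) or NaCl 3 h replicate 1 (-2.52) or 2 (-2.06).

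CCoAOMT, which makes feruloyl-CoA, had 2 abundant genes with means of 38.5 and 109 FPKM among its members, and its other 3 tested genes had at most 3.11 FPKM. In PEG 3 h both abundant genes rose, and in the ABA 24 h libraries both fell. PH02Gene07558 was at 42.9, 36.9 and 40.8 FPKM in CK 3 h, 221, 166 and 189 FPKM in PEG 3 h, 226, 169 and 214 FPKM in NaCl 3 h, 269.9, 292 and 278 FPKM in SA 3 h and 73.3, 69.9 and 80.7 FPKM in ABA 3 h. All treated libraries were above the controls. It rose with SA (log2 fold change 3.16, standard error 0.12, adjusted p = 3.1e-18, edgeR), PEG (2.65) and NaCl (2.37), and with ABA by a value at the 2-fold limit (1.02). The ABA value lay below the limit without CK 3 h replicate 2 or ABA 3 h replicate 3 (0.97 each), without TMM factors (0.96) and on the FPKM (0.88 to 0.89). At 24 h it was at 41.5, 40.8 and 37 FPKM in CK, 262, 246 and 274 FPKM in SA, 94, 86.6 and 97 FPKM in NaCl and 3.69, 2.61 and 2.40 FPKM in ABA. The SA and NaCl libraries lay above these controls and the ABA libraries below them. The NaCl effect at 24 h was 1.32. The SA effect was 2.66, and its difference from the 3 h effect (-0.51) was not called. With PEG the gene was at -0.94, past 2-fold only without TMM factors (-1.11) or on the FPKM (-1.08 to -1.12). Its difference from the 3 h effect, -3.59, was called. In the ABA 24 h libraries it fell (log2 fold change -3.47, standard error 0.14, adjusted p = 7.4e-17, edgeR).

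PH02Gene12695 rose with PEG at 3 h by a value near the limit (1.21, lost on the FPKM and, at 0.86, without TMM factors). It was at 47.6, 52.7 and 46.8 FPKM in CK 24 h and also fell in the ABA 24 h libraries, to 5.56, 6.78 and 7.12 FPKM (-2.62). The summed CCoAOMT level was 94.8 ± 5.11 FPKM in CK 24 h and 14.1 ± 1.66 FPKM in ABA 24 h (mean ± SD, n = 3 each). The ABA effects at 24 h lay below those at 3 h for both abundant genes, with called differences of -4.49 (PH02Gene07558) and -3.26 (PH02Gene12695). The less abundant PH02Gene46700 fell with PEG (-1.12) and NaCl (-1.48) at 3 h. Its rise with SA at 3 h (1.18) was lost without TMM factors (0.81) and on the FPKM (0.71 to 0.80). PH02Gene37560 was called in no comparison (largest value -0.89, past 2-fold only without NaCl 24 h replicate 2, at -1.08). PH02Gene50882 had at most 29 counts, with 19, 29 and 0 in CK 3 h and 0 in every PEG 3 h and SA 3 h library.

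**Figure D3:**
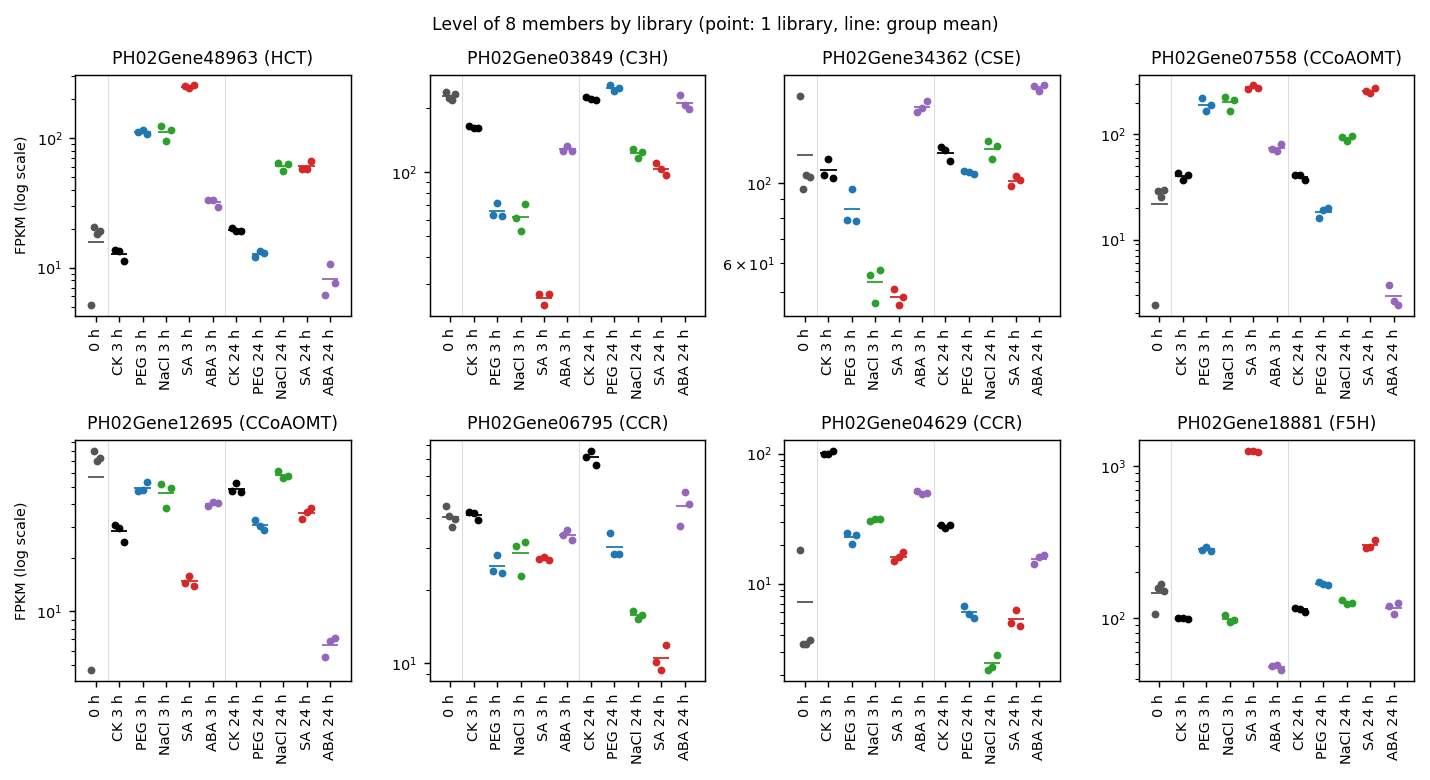
FPKM (vertical axis, log scale) of 8 members in each library (points) of the 11 groups (horizontal axis), 1 panel per gene, with a line at each group mean. PH02Gene48963, PH02Gene07558 and PH02Gene18881 had their highest libraries in SA 3 h, where PH02Gene03849 had its lowest, and the 3 ABA 24 h libraries and 1 of the 4 0 h libraries lay lowest for PH02Gene07558 and PH02Gene12695.

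CCR, the first enzyme specific to monolignols, had 24 tested genes, and no single gene supplied more than 32.3% of the summed level in any group. Falls of its 3 most abundant genes differed in time and treatment. PH02Gene06795 did not pass the test in any treatment at 3 h, with values from -0.50 to -0.15. At 24 h it was at 71.9, 76 and 66 FPKM in CK, 34.6, 28.3 and 28.3 FPKM in PEG, 16.4, 15.3 and 15.9 FPKM in NaCl and 10.1, 9.33 and 11.9 FPKM in SA. All 9 of these treated libraries lay below the controls. The gene fell with SA (log2 fold change -2.82, standard error 0.13, adjusted p = 2.7e-16, edgeR), NaCl (-2.07) and, at the limit, PEG (-1.05, between -0.95 and -0.998 and below 2-fold without CK 24 h replicate 1 or 2 or PEG 24 h replicate 2 or 3). The SA effect at 24 h was lower than that at 3 h by a called difference (-2.58).

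PH02Gene04629 fell in 6 of the 8 comparisons. It was at 100.05, 98.8 and 105 FPKM in CK 3 h and 28, 27 and 28.2 FPKM in CK 24 h, so that its control level had itself fallen with time (log2 fold change -1.81, standard error 0.10, adjusted p = 6.7e-14, edgeR). At 3 h it was at 15, 16 and 17.4 FPKM in SA and 24.7, 20.1 and 23.8 FPKM in PEG, and at 24 h at 2.16, 2.30 and 2.84 FPKM in NaCl. The treated libraries lay below their controls throughout. The log2 fold changes in PEG, NaCl and SA were -1.75, -1.68 and -2.29 at 3 h, and -2.02, -3.41 and -2.44 by 24 h. ABA did not pass the test (-0.89 and -0.54). The 0 h libraries other than replicate 1 had 3.43 to 3.70 FPKM of this gene, below both control groups.

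PH02Gene42850 was at 20.4, 20.8 and 20.5 FPKM in CK 3 h, 56.9, 59.7 and 54.2 FPKM in ABA 3 h and 8.96, 7.86 and 7.62 FPKM in NaCl 3 h. It rose with ABA (1.59) and fell with NaCl (-1.31) and, at 24 h, with SA (-1.32). The difference between its ABA effects at 24 h and 3 h was -1.998. A pair of further abundant CCR genes, named after their values had been seen, are added. PH02Gene04803 rose with NaCl at 3 h from 14.5, 13.7 and 13.6 FPKM to 110.1, 93.2 and 113 FPKM (log2 fold change 2.95, standard error 0.14, adjusted p = 5.6e-16, edgeR) and with PEG (2.18), with SA at -0.48, and rose with NaCl at 24 h (1.62). PH02Gene28903 fell with SA at both times (-2.11 and -2.71) and in the ABA 24 h libraries (-1.44). PH02Gene03651 rose only at 24 h, with PEG (11.4, 10.8 and 13.5 FPKM in CK, 38.7, 44.6 and 45.6 FPKM in PEG, 2.03) and NaCl (1.16). Both differences from the 3 h effect were called (2.32 and 1.49). PH02Gene42027 had the smallest changes of the CCR genes with a mean of at least 1 FPKM, none beyond -0.95 in PEG 3 h, a value past 2-fold without TMM factors (-1.29).

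CCR was the family with the most tested genes, and of its 24, 6 fell and 2 rose with PEG at 24 h, where 9.58% of all tested genes fell and 6.72% rose. With NaCl at 24 h, 8 fell and 5 rose (all genes 15.4% and 14.2%), and with SA 9 fell and 1 rose (all genes 11.7% and 9.03%). In the ABA 24 h libraries 4 fell and 3 rose (all genes 13.7% and 6.51%). The summed CCR level was 311 ± 7.64 FPKM in CK 24 h and 147 ± 2.79 FPKM in SA 24 h (mean ± SD, n = 3 each). Among low-count CCR genes, PH02Gene32193 had 62, 81 and 13 counts in CK 24 h, 324, 293 and 316 in NaCl 24 h (2.43). It had 0 in each ABA 24 h library, at least 14.1-fold lower than CK 24 h on a floor of 3 counts per library. PH02Gene12617 fell with PEG at 24 h (-3.79), on 12, 12 and 0 counts against 130, 106 and 126. PH02Gene02696 had 7, 5 and 0 counts in CK 24 h and 91, 44 and 31 in NaCl 24 h. PH02Gene42984, a further CCR gene of the list, was at 0 counts in 29 of the 34 libraries and untested.

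Of the 32 genes listed as F5H, the enzyme on the way to syringyl lignin, 18 were tested, and PH02Gene18881 had the highest level of them in 9 of the 11 groups. It was at 99.7, 101 and 98.2 FPKM in CK 3 h, 282, 292 and 278 FPKM in PEG 3 h, 105, 94.1 and 96.6 FPKM in NaCl 3 h, 1259, 1262 and 1245 FPKM in SA 3 h and 48.7, 49.5 and 45.6 FPKM in ABA 3 h. The SA libraries lay far above the PEG libraries, which in turn lay above the controls. The NaCl libraries overlapped with the controls and the ABA libraries lay below them. The gene rose with SA (log2 fold change 4.02, standard error 0.07, adjusted p = 4e-25, edgeR) and PEG (log2 fold change 1.91, standard error 0.06, adjusted p = 5.7e-19, edgeR), and neither NaCl (0.01) nor ABA (-0.93, -1.04 to -1.05 on the FPKM) passed the test. SA exceeded PEG by 2.11, NaCl by 4.004 and ABA by 4.95 on the log2 scale, all called (34.2% of all tested genes were called between SA 3 h and ABA 3 h). At 24 h it was at 117, 115 and 111 FPKM in CK and 291, 293 and 327 FPKM in SA (1.36), a smaller effect than at 3 h by -2.66. It made up 85% of the summed F5H level in SA 3 h and 41.1% in CK 3 h, and that sum was 1477 ± 12.3 FPKM and 242 ± 5.66 FPKM in these groups (mean ± SD, n = 3 each).

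PH02Gene18882, whose identifier follows that of PH02Gene18881, rose with SA as well, from 12.9, 14 and 12.5 FPKM to 86.3, 83.6 and 84.4 FPKM (3.05), and with SA at 24 h (1.42). Unlike PH02Gene18881, it did not pass the test with PEG at 3 h (0.77). It was named after its values had been seen, and over the 11 group means the pair had a Pearson r of 0.83, given as a description. Both genes had their highest mean in SA 3 h (1255 and 84.8 FPKM), and the r was not computed without that group. Whether reads could be shared between such neighbours depends on their sequence similarity, which was not tested. Another member that rose with SA, PH02Gene15790, was at 1.51, 1.11 and 1.63 FPKM in CK 3 h and 28.2, 32.2 and 28.8 FPKM in SA 3 h (log2 fold change 4.75, standard error 0.45, adjusted p = 8.2e-10, edgeR). It rose with SA at 24 h too (2.46). With PEG it rose at 3 h (1.04) and fell at 24 h (-4.07), when it fell with NaCl as well (-1.23). The PEG 3 h rise was lost with DESeq2 (1.07, adjusted p = 0.054), without TMM factors (0.69), and without PEG 3 h replicate 2 (0.45) or any of the CK 3 h libraries (0.89 to 1.14). The NaCl 24 h fall was lost without CK 24 h replicate 2 or NaCl 24 h replicate 2 or 3 (-1.03 to -1.20).

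Other F5H genes rose with PEG or NaCl. PH02Gene24107, named after its values had been seen, rose with PEG at 3 h from 16.4, 18.5 and 17.1 FPKM to 77.7, 80.8 and 76.3 FPKM (log2 fold change 2.57, standard error 0.10, adjusted p = 4.7e-18, edgeR) but stood at -0.23 at 24 h (difference -2.79, called), and rose with NaCl at 24 h (1.05, below 2-fold at 0.98 without TMM factors). PH02Gene30039 rose with PEG at 3 h (3.61) from 0.866, 0.912 and 0.837 FPKM to 6.89, 11.1 and 6.63 FPKM, and at 24 h it rose with NaCl (1.34) and fell with SA (-1.36). The NaCl call was lost without CK 24 h replicate 1 (1.10), and the SA call without CK 24 h replicate 2 or 3 or SA 24 h replicate 2 or 3 (-0.91 to -1.57). PH02Gene38755 had 0 counts in every CK 24 h library and 1100, 758 and 969 counts in NaCl 24 h, at least 277-fold higher on a floor of 3 counts per library. It had 42, 42 and 58 counts in PEG 24 h, at least 17.5-fold higher. At 3 h it had 9, 2 and 0 counts in CK and 69, 116 and 52 counts in ABA (4.78). PH02Gene49877 was at 0 counts in all CK 3 h libraries and at 72, 23 and 28 counts in NaCl 24 h against 2, 0 and 0 in CK 24 h (5.41). PH02Gene36673 rose with ABA at 3 h (2.92) and fell in the ABA 24 h libraries (-2.92). It also fell with PEG at 3 h (-1.79, not called with only the 2 groups fitted, adjusted p = 0.096, edgeR) and rose at 24 h with NaCl (2.31) and SA (1.55).

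The F5H genes next in level to PH02Gene18881 were not called against CK. PH02Gene10864 ranged from -0.24 to 0.94 and PH02Gene29718 from -0.39 to 0.93 over the 8 comparisons, and neither was called in any of them. The NaCl effect of PH02Gene29718 was higher at 24 h than at 3 h by a called difference (1.19). PH02Gene10864 passed 2-fold in ABA 24 h without CK 24 h replicate 2 (1.01) or ABA 24 h replicate 2 (1.03). Falls were seen for PH02Gene34078, which was at 14.5, 15.6 and 17 FPKM in CK 3 h and 3.00, 2.99 and 2.88 FPKM in SA 3 h (-2.05). It fell with NaCl at 3 h (-1.04, below 2-fold at -0.98 without CK 3 h replicate 3) and PEG at 24 h (-1.93) and rose in the ABA 24 h libraries (1.56). Its control level fell with time to 3.5, 2.79 and 4.39 FPKM (-2.09). PH02Gene39460 fell with all 4 treatments at 3 h and with NaCl and SA at 24 h, with log2 fold changes of -2.02 (NaCl), -2.03 (SA), -1.05 (PEG) and -1.29 (ABA) at 3 h. The PEG call was lost on omitting PEG 3 h replicate 1 (-0.93) or CK 3 h replicate 2 (-0.86), and the ABA call without ABA 3 h replicate 2 (-0.99). Its values at 24 h were -3.32 (NaCl) and -3.08 (SA). The low-count PH02Gene22138 had 0, 34 and 0 counts in ABA 3 h against 77, 151 and 64 in CK 3 h (-2.63). This ABA call was lost without ABA 3 h replicate 1 (-2.04) or 3 (-2.05) or with only the 2 groups fitted (-2.62).

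**Figure D4:**
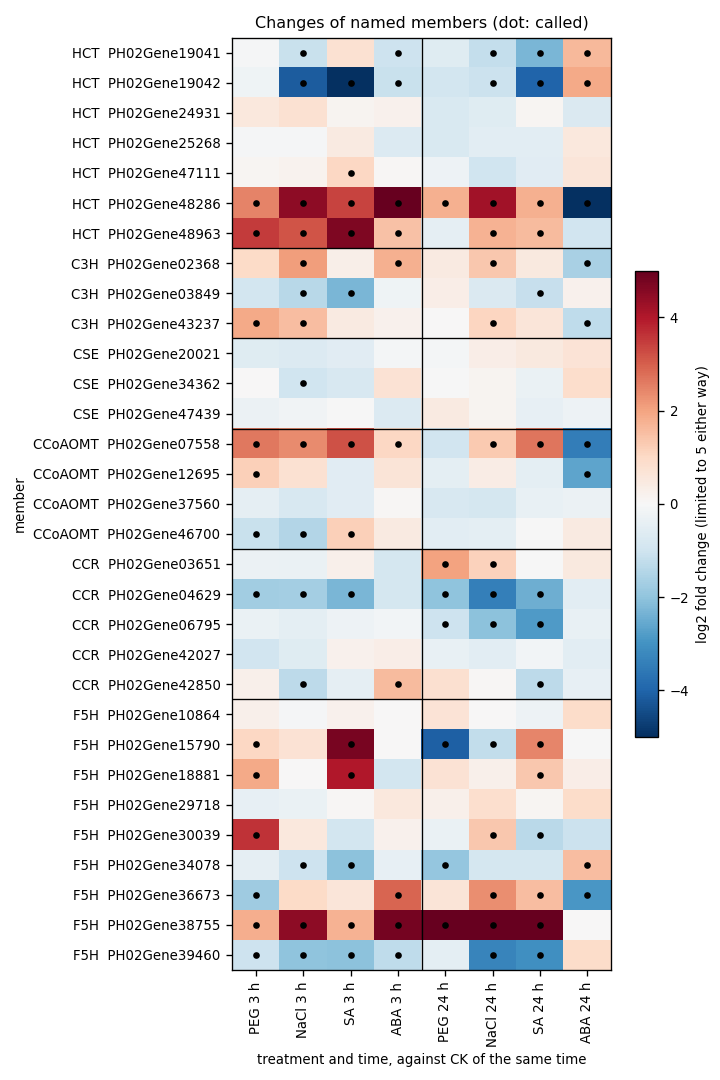
Log2 fold change (colour, limited to ±5) against CK of the same time for the named members with a mean of at least 1 FPKM (rows, grouped by family in pathway order) in the 8 comparisons (columns), with a dot where the change was called. PH02Gene48963 was called higher in 6 of the 8 comparisons and PH02Gene04629 lower in 6 of the 8, while the rows of PH02Gene10864 and PH02Gene29718 hold no dot.

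Between the controls, CK 24 h against CK 3 h, 9 members rose (4.86% of all tested genes did) and 5 fell (2.67%), together 18.9% of the 74 beside 7.52% of all tested genes. The largest falls were those of PH02Gene38755, from 9, 2 and 0 counts to 0 in each library, and of PH02Gene34078 (above), and the largest rises those of PH02Gene32193 (2.80) and PH02Gene48286 (2.06), all but PH02Gene34078 on few counts. The rise of PH02Gene32193 was lost with the 0 h libraries in the fit (adjusted p = 0.052, edgeR), and that of PH02Gene48286 without CK 3 h replicate 2 (1.34) or CK 24 h replicate 3 (1.62). The CCoAOMT gene PH02Gene46700 fell too (-1.67). Each treatment was compared with the control of its own time only.

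The effects at 24 h were tested against those at 3 h. For PEG, the effects of 5 members were higher at 24 h (9.58% of all tested genes) and those of 19 were lower (12.9%), together 32.4% of the 74 beside 22.4% of all tested genes. For NaCl, 11 were higher (9.95%) and 15 lower (11.4%), together 35.1% beside 21.3%. For SA, 8 were higher (8.90%) and 11 lower (11.1%), together 25.7% beside 20%, and without TMM factors 12 were higher and 9 lower. The median of all tested genes for this SA difference was then 0.41. For ABA, 10 were higher (11.2%) and 16 lower (14.7%), together 35.1% beside 26%. The lower PEG effects at 24 h included those of the abundant genes PH02Gene48963, PH02Gene07558, PH02Gene24107 and PH02Gene04803 (-3.04), all of which had risen at 3 h. Over the 8 comparisons with CK, 14 of the 74 members were never called, 17 were called higher only, 20 lower only and 23 in both directions, and 7 were called in at least 6. In single comparisons 16.3% to 29.6% of all tested genes were called. These patterns were not counted over all tested genes, so they describe the members only. On log2(FPKM + 1), a scale that shrinks the changes of genes with low levels, further calls given above were lost. At 3 h these were PH02Gene14766, PH02Gene15790, PH02Gene36673 and PH02Gene39460 in PEG, PH02Gene19041, PH02Gene34078 and PH02Gene44160 in NaCl, PH02Gene25625 and PH02Gene38043 in SA and PH02Gene14766, PH02Gene19041, PH02Gene22138, PH02Gene38755 and PH02Gene39460 in ABA. At 24 h they were PH02Gene15790, PH02Gene19042, PH02Gene24107, PH02Gene30039 and PH02Gene43237 in NaCl and PH02Gene30039 in SA, and the rest were PH02Gene32193 and PH02Gene48286 between the controls and the NaCl time difference of PH02Gene20021.

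The other genes of the pathway, from the same list, are given as counts. Of 34 tested genes of the entry steps (PAL, C4H and 4CL, which make p-coumaroyl-CoA from phenylalanine), 12 rose and 1 fell in PEG 3 h, 16 and 2 in NaCl 3 h, 10 and 10 in SA 3 h and 15 and 3 in ABA 3 h. At 24 h 3 rose and 5 fell with PEG, 6 and 3 with NaCl, 11 and 9 with SA and 0 and 22 in the ABA 24 h libraries. Of the 14 CAD genes tested, 3 rose and 1 fell in PEG 3 h, 3 and 2 in NaCl 3 h, 2 and 1 in SA 3 h and 3 and 1 in ABA 3 h. At 24 h the CAD counts were 3 and 1 with PEG, 4 and 1 with NaCl, 2 and 1 with SA and 0 and 5 in the ABA 24 h libraries. The study itself reports rises of several CAD genes after 24 h of ABA, whereas none rose here in the libraries labelled so. The reason for this difference was not tested. Among all tested genes, 13.3% rose and 12.6% fell in PEG 3 h, 10.9% and 9.64% in NaCl 3 h, 14.5% and 14.3% in SA 3 h and 10.4% and 11.4% in ABA 3 h. The shares at 24 h were those given for CCR, including 6.51% higher and 13.7% lower in the ABA 24 h libraries. In the ABA 24 h libraries 14 of the later-step members fell and 6 rose. These lists share their control libraries with the comparisons above, and no test compared one list with another.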

How the data were processed

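RNA was sequenced from young leaves of 34 Moso bamboo seedling samples in 11 groups, in biological replicates according to the study. The authors deposited raw read counts per gene and FPKM values for 59091 genes. The submitters' processing notes name HISAT2 and DESeq2, while the genome build, annotation, counting program and use of strand were not named in any source used here. Reads of near-identical or overlapping genes may therefore be split between them. Library totals were 28153302 to 51695158 counts, no columns of other samples were found, and every replicate pair differed by more than counting noise.

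The members, gene lists and comparisons were chosen with earlier results of these data known. Members came from the study's list of lignin genes, and conflicts of family name were left as listed. Genes that the study's list or text places in 1 further family of the pathway are not reported here and were left out of all counts of members. The named genes were all C3H and CCoAOMT members, the 3 most abundant of each other family, the 2 largest called rises and falls per comparison with CK and between the controls, the largest called rise and fall of each time difference, the least changed member of each family with a mean of at least 1 FPKM, and the 2 members with conflicting names. Others are marked as named after their values had been seen.

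Counts were filtered (filterByExpr, 39089 genes left) and fitted with edgeR 4.0.16 (R 4.3.3, TMM, quasi-likelihood, 1 model of 30 libraries in 10 groups, without 0 h). Standard errors are the log2 fold change divided by the root of F and are approximate. Called genes had a Benjamini-Hochberg adjusted p below 0.05 over all tested genes and a change of at least 2-fold. Fold limits against groups at 0 use a floor of 3 counts per library and cover counting error only. The script was tested on simulated data. Alternatives were DESeq2 1.42.0 and its size factors, no filter, all 34 libraries, only the groups compared, a replicate block, limma 3.58.1 on log2(FPKM + 0.1) and log2(FPKM + 1) for genes with a mean of at least 1 FPKM in some group, each library left out and, added after the data had been seen, library totals without TMM factors. Differences between 2 treatments at 1 time were also added then. The labelled tissue was not checked against marker genes, since the identifiers are not paired with symbols in the sources used here.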

Additional observations from a re-analysis of the deposited data

Results flagged for a closer look

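Among the named members, 18 had 1 of the 4 libraries labelled 0 h far from the other 3. Chance alone would flag about 1 in 20 groups. That rate is no measure for these 18, since most share 1 library and 4 had the other 3 libraries at 0. For 14 of the 18 genes the library was replicate 1, lower than the others for 6 genes and higher for 8. It was lower for the CCoAOMT genes PH02Gene07558 (2.42 FPKM, others 25.6 to 29.9 FPKM) and PH02Gene12695 (4.67 FPKM, others 70.03 to 80.03 FPKM), the CCR genes PH02Gene03651 (17.1 FPKM, others 41.4 to 44.9 FPKM) and PH02Gene42850 (14.7 FPKM, others 63.9 to 67.2 FPKM), the C3H gene PH02Gene43237 (4.37 FPKM, others 16.6 to 18.97 FPKM) and the HCT gene PH02Gene48963 (5.16 FPKM, others 18.2 to 20.6 FPKM). It was higher for the HCT genes PH02Gene19041 (24.3 FPKM, others 2.02 to 4.33 FPKM), PH02Gene19042 (26.6 FPKM, others 2.34 to 3.37 FPKM), PH02Gene25268 (4.996 FPKM, others 2.49 to 2.75 FPKM) and PH02Gene47111 (187 FPKM, others 80.5 to 84.5 FPKM), for the CCR gene PH02Gene04629 (18.1 FPKM, others 3.43 to 3.70 FPKM), the F5H genes PH02Gene15790 (1.97 FPKM, others 0.365 to 0.427 FPKM) and PH02Gene34078 (6.28 FPKM, others 1.198 to 1.39 FPKM) and the CSE gene PH02Gene34362 (174 FPKM, others 96.3 to 105 FPKM). The same library had a Spearman rho of 0.964 to 0.973 to the libraries labelled ABA 24 h, and whether its label is right was not tested. The remaining 4 flags were single libraries with a few reads of a gene that the other 3 listed at 0, namely PH02Gene02696 (0.109 FPKM, replicate 3), PH02Gene11151 (0.0746 FPKM, replicate 2), PH02Gene42984 (0.043 FPKM, replicate 2) and PH02Gene48782 (0.0402 FPKM, replicate 4).

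The largest called differences between a treatment's effect at 24 h and at 3 h, by edgeR's test of the interaction, are listed for each treatment. For PEG they were -8.87 for the F5H gene PH02Gene49877 and 6.86 for the F5H gene PH02Gene38755, and for NaCl -3.17 for the CCR gene PH02Gene12617 and 8.17 for PH02Gene38755. For SA they were 7.83 for the CCoAOMT gene PH02Gene50882 and -7.53 for the HCT gene PH02Gene18490, and for ABA 2.997 for the HCT gene PH02Gene19042 and -12.5 for the HCT gene PH02Gene48286. All of these genes but PH02Gene12617 and PH02Gene19042 had at least 1 of the 4 groups at 0 counts in every library, so that the fitted values depend on the prior count and are no bounds. The calls of PH02Gene50882 and PH02Gene18490 for SA and of PH02Gene12617 for NaCl were lost when any of several single libraries was left out, and that of PH02Gene50882 was at 2.83 without SA 24 h replicate 2.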

How the results depend on the processing

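Counts of called members stayed within 1.5 times of those in the report under every alternative tried but 2. On log2(FPKM + 1), with 64 tested members, 15 members (8 higher, 7 lower) were called in PEG 3 h instead of 23, 9 (7 higher, 2 lower) in ABA 3 h instead of 18, and 8 (4 higher, 4 lower) between the controls instead of 14. With all 34 libraries in the fit, 9 (5 higher, 4 lower) were called between the controls. That fit included replicate 1 of the 0 h group, which stood apart from the other 0 h libraries. With libraries omitted one at a time, the number of called members was 20 to 22 (PEG 3 h), 23 to 26 (NaCl 3 h), 26 to 28 (SA 3 h), 13 to 21 (ABA 3 h), 11 to 14 in PEG 24 h, 26 to 29 in NaCl 24 h, 22 to 27 in SA 24 h, 19 to 22 in ABA 24 h and 12 to 13 between the controls. For the differences between 24 h and 3 h effects the ranges were 23 to 25 for PEG, 21 to 24 for NaCl, 15 to 20 for SA and 25 to 33 for ABA. Removing the TMM factors moved the balance of higher and lower calls in PEG 3 h, SA 3 h, PEG 24 h, ABA 24 h and the SA difference, as given in the report.

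The replicate numbers were not treated as pairs: in 0 of 9 comparisons did every same-numbered pair correlate above 0.1 (range -0.13 to 0.148 over 15791 genes). With 3 libraries per group, failing this rule does not show that no pairing existed. With the replicate block, the called members numbered 21 (PEG 3 h), 26 (NaCl 3 h), 28 (SA 3 h) and 17 (ABA 3 h). Of the log2 fold changes followed under the alternatives, the block lost only the call of PH02Gene15790 in PEG 3 h (0.995) and 3 time differences. Those were PH02Gene12617 (NaCl), PH02Gene18490 and PH02Gene50882 (SA). None of the 201 log2 fold changes followed reversed under any alternative. The time differences of PH02Gene24931, PH02Gene47111, PH02Gene25268 and PH02Gene29718 were not followed in this way. Calls were lost for 3 of 200 with DESeq2, 3 of 201 with DESeq2 size factors, 3 without the filter, 8 of 198 with only the groups compared, 15 with all 34 libraries, 8 without TMM factors, 8 of 197 on log2(FPKM + 0.1) and 29 of 197 on log2(FPKM + 1), and calls were gained for 5, 7 and 6 under the last 3 of these. Leaving out single libraries lost 78 calls and gained 4 in 1386 refitted values. Most lost calls belonged to values at the 2-fold limit or to genes with few counts, for which depth limits what can be shown.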

Other observations

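Some members outside the rule for named genes, chosen after their values had been seen, showed patterns of their own. The CCR gene PH02Gene20528 rose with NaCl (2.20) and ABA (2.36) at 3 h, was at 0.45 with PEG at 3 h, which did not pass the test, and fell in the ABA 24 h libraries (-2.01). The CCR gene PH02Gene01698 rose with SA at both times (1.89 and 2.40) and with NaCl at 24 h (1.42), in contrast to PH02Gene14706 of the same family, which fell with SA at both times (-1.71 and -1.27) and with NaCl at 3 h (-1.37). PH02Gene04631, which follows PH02Gene04629 by 2 in its identifier, fell with NaCl (-2.55) and SA (-1.65) at 24 h and with PEG (-1.29) and NaCl (-1.34) at 3 h, as PH02Gene04629 did. PH02Gene04631 was called lower in these 4 comparisons only, and PH02Gene04629 in 6. PH02Gene04630, whose identifier lies between theirs, was called lower in 1 and higher in 1, the ABA 24 h comparison (1.11). The HCT gene PH02Gene24448 fell in the ABA 24 h libraries (-3.05), and the difference between its ABA effects at 24 h and 3 h was -3.995. These values come from edgeR's quasi-likelihood fit over all genes and are log2 fold changes against CK of the same time.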
